A study of Mus musculus with 12 samples.

Results

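Transcripts of 7 lysosomal glycosidases, the enzymes that cut single sugars from glycan chains in the lysosome, were followed across 3 Marf1 genotypes of the mouse oocyte. Manba, Man2b1, Hexa, Gla, Glb1, Fuca1 and Gusb were taken by symbol from a table of 24254 genes, and all 7 were found. The set was chosen by the FPKM of Manba, which is nearly lost in both mutants, so its values in each mutant against WT are given as a description with no test. The other 6 were added as enzymes of the same class.

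RNA was sequenced from fully grown oocytes at the germinal vesicle stage. The genotypes were D272Mut, a mutant that the labels name by D272, GTMut, a gene trap of Marf1, and WT, with 4 libraries each. MARF1 is an RNA-binding protein with a ribonuclease fold that oocytes need to resume meiosis. The mice, C57BL/6 aged 3 weeks in every group, had received 5 IU of PMSG, a hormone that makes follicles grow, 46 h earlier, and 80 oocytes went into each library. Nothing in the sources used here ties the libraries to separate animals, so a p-value measures only how these libraries vary, which may be technical. In bulk samples, fewer cells of a type and less RNA per cell cannot be told apart.

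Lysosomal glycosidases work in sequence from the free end of a sugar chain, and each removes a particular sugar in a particular linkage. They are made in the endoplasmic reticulum, marked with mannose 6-phosphate in the Golgi and carried to the lysosome by receptors. Loss of a single enzyme stores its undigested substrate, as in the human diseases alpha- and beta-mannosidosis, fucosidosis, Tay-Sachs disease and Fabry disease. Many genes of the lysosome carry near their start a sequence centred on CACGTG, which the transcription factor TFEB can bind.

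That hexamer reads the same on both strands and was searched in the RefSeq promoter windows of the 7 genes (GRCm38.p6), each of 300 bases with 250 before the annotated start and 50 after it. All 7 matched by symbol, and 2 of them held the hexamer. Of all 32851 windows of this length, 7.15% held it, and 0.594% held 2 or more copies. The 250 bases before the start are shown for Manba, the gene that was nearly lost in the mutants, for Glb1, which was lower in both mutants, and for Gla, whose level stood higher in both, with CACGTG in capitals. The windows are chr3:135485361-135485610 on the plus strand for Manba, chr9:114400828-114401077 on the plus strand for Glb1 and chrX:134601006-134601255 on the minus strand for Gla, each written 5′ to 3′ in the direction of the gene.
Manba: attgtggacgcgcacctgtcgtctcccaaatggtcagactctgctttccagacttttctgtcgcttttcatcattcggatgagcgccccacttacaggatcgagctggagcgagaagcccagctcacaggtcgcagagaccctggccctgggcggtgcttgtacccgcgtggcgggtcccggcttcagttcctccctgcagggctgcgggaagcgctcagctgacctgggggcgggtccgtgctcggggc
Glb1: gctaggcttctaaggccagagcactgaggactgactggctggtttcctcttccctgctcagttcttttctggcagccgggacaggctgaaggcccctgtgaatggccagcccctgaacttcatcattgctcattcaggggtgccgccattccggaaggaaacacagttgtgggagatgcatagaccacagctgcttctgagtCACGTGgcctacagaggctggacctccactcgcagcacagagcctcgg
Gla: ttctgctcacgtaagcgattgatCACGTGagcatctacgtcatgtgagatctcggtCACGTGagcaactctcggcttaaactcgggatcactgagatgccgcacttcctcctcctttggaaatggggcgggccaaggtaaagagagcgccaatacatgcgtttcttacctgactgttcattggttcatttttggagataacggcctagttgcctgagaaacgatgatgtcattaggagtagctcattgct
In Glb1 the hexamer began 48 bases before the start. Gla held it at 227 and at 194 bases before the start. No copy of these letters was present in the windows of Manba, Fuca1, Man2b1, Hexa and Gusb. A match is a description of the sequence and not a site.

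Levels are FPKM, that is, sequenced fragments divided by transcript length and by library size, and a mean carries the SD of 4 libraries. Because FPKM is per length, levels may be set side by side between genes. Low FPKM values moved in steps worth 1 fragment, and from these steps an effective depth of 4000000 to 7540000 fragments was estimated for D272Mut libraries, 5010000 to 9010000 for GTMut libraries and 5530000 to 8510000 for WT libraries. Marf1 itself stood at 53.1 ± 1.02 FPKM in D272Mut, 1.43 ± 0.13 FPKM in GTMut and 25.8 ± 0.625 FPKM in WT oocytes, so little Marf1 transcript was found in GTMut and more in D272Mut than in WT (log2 differences from WT of 1.01 ± 0.05 in D272Mut and -3.46 ± 0.05 in GTMut, limma adjusted p = 2.92e-10 and 8.61e-16). The 10 oocyte markers examined summed to 8870 to 9040 FPKM in D272Mut, 9320 to 9820 FPKM in GTMut and 11700 to 11900 FPKM in WT libraries. Of the 7 glycosidases, 3 reached 1 FPKM in any library and entered the test over 12980 genes, namely Manba, Glb1 and Fuca1. Glb1 did so only in WT libraries, where it was higher, and Man2b1, Gla, Hexa and Gusb did so in none.

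**Figure D1:**
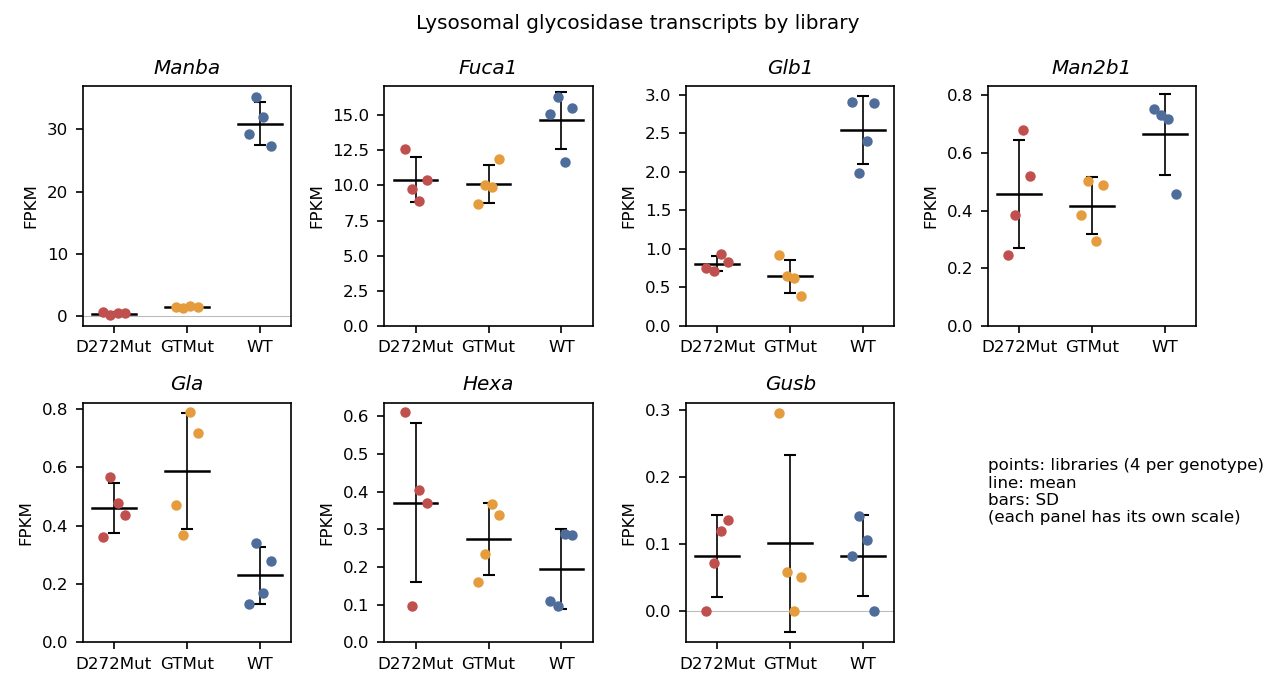
FPKM of the 7 lysosomal glycosidase transcripts, 1 panel per gene with its own scale, and genotypes from left to right D272Mut, GTMut and WT. Points are libraries, 4 per genotype, lines are means and bars are SD, and Manba lies at 27.3 FPKM or above in every WT library and at 1.74 FPKM or below in every mutant library.

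Manba encodes beta-mannosidase, which removes the last beta-linked mannose in the breakdown of N-linked glycans. It lies on mm10 chromosome 3 from 135485609 to 135571403, on the plus strand. Its level was 0.655, 0.23, 0.501 and 0.485 FPKM in the 4 D272Mut libraries, 1.48, 1.31, 1.74 and 1.52 FPKM in the 4 GTMut libraries, and 29.2, 35.2, 31.9 and 27.3 FPKM in the 4 WT libraries. The genotypes did not overlap, with D272Mut lowest, GTMut above it and WT far above both. As fragments, these values came to 9, 5, 13 and 11 in D272Mut libraries, 39, 35, 30 and 47 in GTMut libraries, and 555, 767, 932 and 604 in WT libraries.

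The mean of Manba was 66.1-fold higher in WT than in D272Mut and 20.4-fold higher in WT than in GTMut. On the log2(FPKM + 1) scale, where the changes of scarce transcripts come out too small, the difference from WT was -4.44 ± 0.11 (SE) in D272Mut and -3.66 ± 0.11 in GTMut. The authors' deposited table lists a log2 ratio of -5.99 for D272Mut over WT and of -4.31 for GTMut over WT.

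How much Manba was left also differed between the mutants. The choice of genes used the low Manba values of both mutants, though not the difference between them, so the p-value below is not independent of it. Manba averaged 0.468 ± 0.176 FPKM in D272Mut and 1.51 ± 0.179 FPKM in GTMut oocytes (n = 4 each), so the mean was 3.24-fold higher in GTMut. This was a log2 difference of -0.78 ± 0.11 (limma, adjusted p = 6.97e-05), with every D272Mut library below every GTMut library. Of all tested genes, 20.2% were lower and 19.3% higher in D272Mut than in GTMut by the same test, and 19% were lower with no overlap. The authors' deposited table lists a log2 ratio of -1.69 for this pair with p = 1. It lists that same p for every comparison of the scarce Man2b1, Gla, Hexa and Gusb, so the value can stand for a test that was not made. Of the 3 glycosidases tested between the mutants, Manba fell in D272Mut, and Glb1 and Fuca1 did not pass the test in either direction.

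Glb1 encodes lysosomal beta-galactosidase, which removes terminal galactose from gangliosides, keratan sulphate and glycoproteins. It lies on mm10 chromosome 9 from 114401076 to 114474379, on the plus strand. The values were 0.751, 0.712, 0.931 and 0.836 FPKM in D272Mut libraries, 0.919, 0.645, 0.626 and 0.389 FPKM in GTMut libraries, and 2.9, 1.98, 2.4 and 2.89 FPKM in WT libraries. Every mutant library lay below every WT library, and the mutants overlapped. Over the 4 libraries of a genotype these values came to about 40 fragments in D272Mut, 37 in GTMut and 135 in WT.

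Glb1 was lower in both mutants. The mean was 0.807 ± 0.0973 FPKM in D272Mut and 2.54 ± 0.444 FPKM in WT, a log2 difference of -0.96 ± 0.12 (limma, adjusted p = 7.39e-06). GTMut averaged 0.645 ± 0.217 FPKM against the same WT mean, a log2 difference of -1.11 ± 0.12 (limma, adjusted p = 1.62e-06). Since Glb1 passed the filter of 1 FPKM only in WT libraries, where it was higher, that filter favours a fall. In the fit of all genes above 0, where Glb1 did not need to pass it, the differences were the same, with adjusted p = 1.32e-05 in D272Mut and 3.25e-06 in GTMut (limma). Between the mutants the difference was 0.14 ± 0.12 (limma, adjusted p = 0.384), which did not pass the threshold of 0.05. Glb1 shares its locus and strand with Tmppe, a gene for a transmembrane protein of the metallophosphoesterase family, and reads of the pair may be split between them. Tmppe averaged 0.525 ± 0.0922 FPKM in D272Mut, 1.77 ± 0.158 FPKM in GTMut and 1.87 ± 0.511 FPKM in WT. It fell in D272Mut (log2 difference -0.90 ± 0.12, limma adjusted p = 1.6e-05) and did not pass the test in GTMut (-0.04 ± 0.12, adjusted p = 0.797). Tmppe reached 1 FPKM only in GTMut and WT libraries, so the filter favours a fall in D272Mut.

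Fuca1 encodes the lysosomal alpha-L-fucosidase, which removes fucose from glycoproteins and glycolipids, and lies on mm10 chromosome 4 from 135920724 to 135940300, on the plus strand. Its level was 12.6, 9.75, 8.89 and 10.4 FPKM in D272Mut libraries, 8.66, 10.0, 9.89 and 11.9 FPKM in GTMut libraries, and 15.1, 16.3, 11.7 and 15.5 FPKM in WT libraries. The lowest WT library lay within the range of each mutant, and the other 3 lay above all mutant libraries. Fuca1 fell in D272Mut by 0.46 on the log2 scale (SE 0.12, limma adjusted p = 0.00331) and in GTMut by 0.49 (SE 0.12, limma adjusted p = 0.00185). D272Mut and GTMut differed by 0.04 ± 0.12 (limma, adjusted p = 0.837).

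Of the 6 glycosidases other than Manba, 2 were thus lower and 0 higher in D272Mut than in WT, and the same held for GTMut. Across all tested genes, 39.5% were lower and 36.3% higher in D272Mut than in WT, and 39.2% were lower and 38.3% higher in GTMut than in WT. With so large a share of genes changed, and with Glb1 tested only through its WT level, 2 lower of 2 tested is not a result about these enzymes. Among tested genes 35.3% were lower in D272Mut than in WT with no overlap, and 36.5% were lower in GTMut than in WT with no overlap, as Glb1 was.

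The remaining 4 glycosidases were scarce in every genotype. Man2b1 encodes lysosomal alpha-mannosidase, which acts before beta-mannosidase on the same glycans, and lies on mm10 chromosome 8 from 85083267 to 85098739, on the plus strand. It stood at 0.245, 0.386, 0.68 and 0.518 FPKM in D272Mut libraries, 0.384, 0.503, 0.293 and 0.488 FPKM in GTMut libraries, and 0.751, 0.732, 0.718 and 0.456 FPKM in WT libraries. The WT library with 0.456 FPKM lay among the mutants and the other 3 lay above them. These values came to 49 fragments in D272Mut, 52 in GTMut and 73 in WT over 4 libraries each. An exact two-sided permutation test of the libraries gave p = 0.143 for D272Mut against WT and p = 0.0857 for GTMut against WT.

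Gla encodes alpha-galactosidase A, which removes terminal alpha-linked galactose from globotriaosylceramide, and lies on mm10 chromosome X from 134588167 to 134601005, on the minus strand. Its level was 0.359, 0.566, 0.476 and 0.435 FPKM in D272Mut libraries, 0.469, 0.369, 0.788 and 0.716 FPKM in GTMut libraries, and 0.13, 0.339, 0.169 and 0.279 FPKM in WT libraries. All mutant libraries lay above all WT libraries, against the direction of Manba, Glb1 and Fuca1. The fragments behind these levels were few, at 4, 10, 10 and 8 in D272Mut libraries, 10, 8, 11 and 18 in GTMut libraries, and 2, 6, 4 and 5 in WT libraries.

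For Gla the exact two-sided permutation test gave p = 0.0286 in each mutant against WT, the smallest p that 70 arrangements allow, and 0.171 after adjustment over 12 comparisons of the 4 scarce genes. When all genes above 0 were fitted, Gla was higher by 0.25 ± 0.09 in D272Mut (limma, adjusted p = 0.0371) and by 0.36 ± 0.09 in GTMut (limma, adjusted p = 0.00448). Among the 6182 genes above 0 with no library at 1 FPKM, 5.5% were higher in D272Mut than in WT with no overlap, and 7.07% were higher in GTMut than in WT with no overlap. The exact test and these fragment numbers were added after the data had been seen.

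Hexa encodes a subunit of the enzyme that degrades GM2 ganglioside, and lies on mm10 chromosome 9 from 59539665 to 59565105, on the plus strand. It stood at 0.611, 0.0966, 0.406 and 0.371 FPKM in D272Mut libraries, 0.16, 0.236, 0.367 and 0.339 FPKM in GTMut libraries, and 0.111, 0.0964, 0.288 and 0.286 FPKM in WT libraries. The genotypes overlapped, and no library held more than 5 fragments of it. The exact permutation test gave p = 0.171 for D272Mut against WT and p = 0.286 for GTMut against WT.

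Gusb encodes beta-glucuronidase, which acts on glycosaminoglycans, and lies on mm10 chromosome 5 from 129989019 to 130002828, on the minus strand. Its values were 0, 0.0711, 0.119 and 0.136 FPKM in D272Mut libraries, 0.295, 0.0579, 0 and 0.05 FPKM in GTMut libraries, and 0.0815, 0.142, 0.106 and 0 FPKM in WT libraries. Over 4 libraries these came to 5 fragments in D272Mut, 7 in GTMut and 5 in WT, and a difference was not detectable at this depth. The exact permutation test gave p = 1 for D272Mut against WT and p = 0.886 for GTMut against WT.

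Set side by side within WT oocytes, the transcripts stood in the order Manba, Fuca1, Glb1 and Man2b1 in all 4 libraries, with Gla, Hexa and Gusb below. The mean of Manba in WT lay above 78.4% of tested genes, that of Fuca1 above 64.2%, and that of Glb1 above 31.7%. Fuca1 led the set in all 8 mutant libraries. After it came Glb1 in all 4 D272Mut libraries and Manba in all 4 GTMut libraries.

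The 7 transcripts together summed to 13.1 ± 1.56 FPKM in D272Mut, 13.7 ± 1.28 FPKM in GTMut and 49.2 ± 3.76 FPKM in WT oocytes. Manba made up 3.52 ± 1.09% of that sum in D272Mut, 11.1 ± 1.43% in GTMut and 62.6 ± 4.01% in WT. With Manba left out, the other 6 summed to 12.6 ± 1.39 FPKM in D272Mut, 12.1 ± 1.21 FPKM in GTMut and 18.4 ± 1.99 FPKM in WT. Most of what remained was Fuca1, which took 79.6 ± 4.06% of the sum of 7 in D272Mut, 73.9 ± 3.42% in GTMut and 29.7 ± 3.61% in WT.

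**Figure D2:**
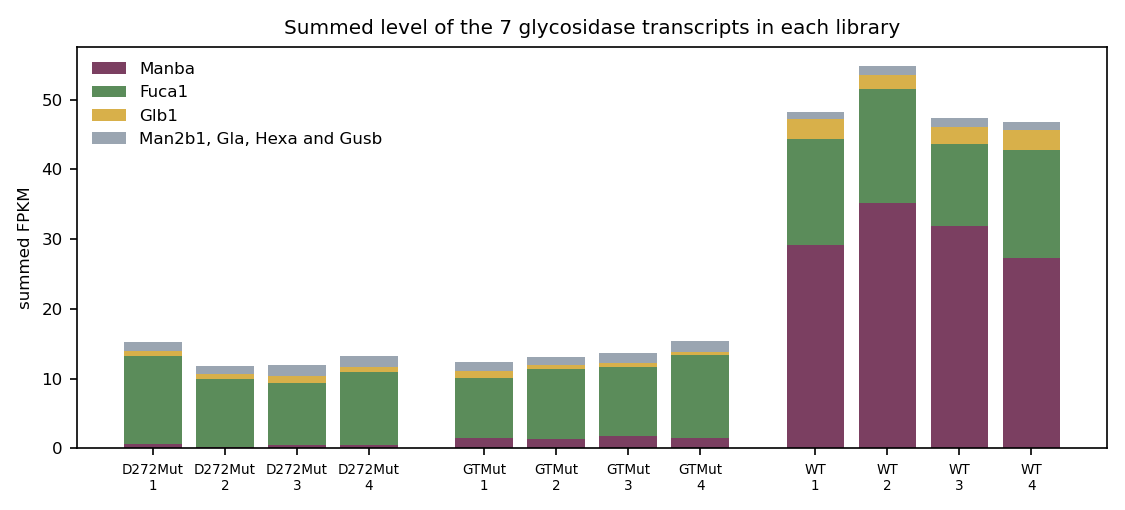
Summed FPKM of the 7 glycosidase transcripts in each library, D272Mut on the left, GTMut in the middle and WT on the right, with Manba, Fuca1, Glb1 and the 4 scarce genes stacked. The WT bars reach 46.7 to 54.8 FPKM and are mostly Manba, while the mutant bars reach 11.8 to 15.4 FPKM and are mostly Fuca1.

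Several glycosidases work with a partner protein. Gm2a encodes the GM2 activator, which presents the ganglioside to its degrading enzyme. It averaged 0.834 ± 0.238 FPKM in D272Mut, 1.39 ± 0.316 FPKM in GTMut and 0.67 ± 0.283 FPKM in WT. It rose in GTMut (log2 difference 0.52 ± 0.14, limma adjusted p = 0.00447, but 0.13 under quantile normalization) and did not pass the test in D272Mut (0.14 ± 0.14, adjusted p = 0.386).

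Beta-galactosidase forms a complex with the sialidase NEU1 and with cathepsin A, which Ctsa encodes. Neu1 rose in both mutants, at 6.61 ± 1.18 FPKM in D272Mut and 5.21 ± 0.698 FPKM in GTMut against 0.954 ± 0.162 FPKM in WT. Its log2 difference from WT was 1.95 ± 0.12 in D272Mut (limma, adjusted p = 2.79e-09) and 1.66 ± 0.12 in GTMut (limma, adjusted p = 1.38e-08). Ctsa stayed under 1 FPKM in all libraries, with means of 0.281 FPKM in D272Mut, 0.0843 FPKM in GTMut and 0.316 FPKM in WT. With 1 added to each FPKM, the ratio of Glb1 to Ctsa therefore mostly follows Glb1 and is not a separate result. The log2 ratio of Glb1 to Ctsa was lower by 0.92 in D272Mut than in WT and by 0.83 in GTMut than in WT, each with an exact permutation p = 0.0286 and 0.0857 after adjustment over the 6 ratio comparisons that were made. Psap, the precursor of the saposins that help several of these enzymes reach lipid substrates, averaged 31.8 ± 3.01 FPKM in D272Mut, 32.2 ± 1.63 FPKM in GTMut and 20.5 ± 1.21 FPKM in WT. It rose by 0.61 ± 0.07 in D272Mut (limma, adjusted p = 1.52e-06) and by 0.63 ± 0.07 in GTMut (limma, adjusted p = 9.44e-07).

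Other enzymes of lysosomal sugar breakdown moved in both directions. Of 17 listed, 9 were tested, of which 3 rose and 5 fell in D272Mut, and 4 rose and 4 fell in GTMut (3 and 5 under quantile normalization). The 4 that rose in GTMut include Hgsnat, an acetyltransferase that cuts no sugar (log2 difference 0.54, limma adjusted p = 0.00152). In D272Mut Hgsnat did not pass the test (-0.09, limma adjusted p = 0.552). The median log2 difference was -0.28 in D272Mut and -0.11 in GTMut, beside -0.05 and -0.02 over all tested genes in the same 2 comparisons. Among all tested genes 36.3% rose and 39.5% fell in D272Mut, and 38.3% rose and 39.2% fell in GTMut. Naglu, an N-acetylglucosaminidase of heparan sulphate breakdown, rose to 8.58 FPKM in D272Mut and 8.06 FPKM in GTMut, against 3.88 FPKM in WT. Hyal2, a hyaluronidase, rose to 60.0 FPKM in D272Mut and 71.3 FPKM in GTMut, against 38.7 FPKM in WT. Ctbs, which cuts the chitobiose core of N-glycans, the stretch next to the linkage of Manba, fell to 5.35 FPKM in D272Mut and 3.66 FPKM in GTMut, against 7.89 FPKM in WT.

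Genes of the machinery that delivers lysosomal enzymes were examined next. All 9 listed genes of mannose 6-phosphate tagging and sorting were tested. In D272Mut 7 fell and 0 rose, with a median log2 difference of -0.71, and in GTMut 7 fell and 1 rose, with a median of -0.86. Over all tested genes, 39.5% fell in D272Mut and 39.2% in GTMut, and the difference of the list from other genes was not tested. Igf2r, the large mannose 6-phosphate receptor, averaged 3.1 FPKM in D272Mut, 2.96 FPKM in GTMut and 7.66 FPKM in WT. Gnptab, a subunit of the enzyme that starts the mannose 6-phosphate tag, averaged 2.44 FPKM in D272Mut, 2.76 FPKM in GTMut and 5.53 FPKM in WT. Gga1, an adaptor that loads the receptors into vesicles, averaged 4.88 FPKM in D272Mut, 5.25 FPKM in GTMut and 11.4 FPKM in WT.

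Of 15 listed lysosomal membrane genes, 12 were tested, of which 2 rose and 8 fell in D272Mut, and 1 rose and 6 fell in GTMut. Over all tested genes, 36.3% rose and 39.5% fell in D272Mut, and 38.3% rose and 39.2% fell in GTMut. The difference of this list and of the next lists from those shares was not tested. Under quantile normalization 0 rose and 10 fell in each mutant. Lamp1, a major membrane glycoprotein of the lysosome, averaged 137 FPKM in D272Mut, 134 FPKM in GTMut and 187 FPKM in WT. Among the 16 subunits and accessory proteins of the V-ATPase, the pump that acidifies the lysosome, all tested, 4 rose and 8 fell in D272Mut, and 6 rose and 9 fell in GTMut. The V-ATPase split in D272Mut depended on the scaling, with 6 higher and 5 lower after median-ratio rescaling and 2 higher and 10 lower after quantile normalization, and in GTMut it was 4 higher and 10 lower after quantile normalization. Of 9 listed genes, the sulfatases and their activator Sumf1, 7 were tested. Of these, 3 with Sumf1 among them rose and 4 fell in D272Mut, and 1, Sumf1, rose and 4 fell in GTMut. After median-ratio rescaling 3 genes of this list rose and 2 fell in D272Mut, and 2 rose and 4 fell in GTMut. After quantile normalization 1 rose and 4 fell in D272Mut. Sumf1, the enzyme that activates all sulfatases, rose to 32.8 FPKM in D272Mut and 31.3 FPKM in GTMut, against 17.4 FPKM in WT.

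Cathepsins and other lysosomal hydrolases moved in both directions. Of 21 listed, 15 were tested, of which 7 rose and 5 fell in D272Mut, and 8 rose and 4 fell in GTMut. Shares over all tested genes were 36.3% higher and 39.5% lower in D272Mut, and 38.3% higher and 39.2% lower in GTMut. Under quantile normalization 5 rose and 6 fell in D272Mut, and 6 rose and 5 fell in GTMut. Ctsl, the protease cathepsin L, averaged 18.2 ± 0.831 FPKM in D272Mut, 21.6 ± 2.35 FPKM in GTMut and 0.799 ± 0.372 FPKM in WT, a log2 difference from WT of 3.44 ± 0.13 in D272Mut (limma, adjusted p = 9.43e-12) and of 3.67 ± 0.13 in GTMut (limma, adjusted p = 3.94e-12).

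Among 10 listed transcription factors and nutrient sensors of the lysosome, 9 were tested, of which 4 rose and 4 fell in D272Mut, and 5 rose and 3 fell in GTMut. Across all tested genes the shares were 36.3% higher and 39.5% lower in D272Mut, and 38.3% higher and 39.2% lower in GTMut. After median-ratio rescaling 5 rose and 3 fell in D272Mut. Tfeb, whose product can bind CACGTG, averaged 5.71 ± 0.723 FPKM in D272Mut and 8.45 ± 0.685 FPKM in GTMut, and was listed at 0 in 3 of 4 WT libraries. These values came to 287 fragments in D272Mut, 503 in GTMut and 1 in WT over 4 libraries each. Tfeb reached 1 FPKM only in mutant libraries, where it was higher, so the filter favours a rise. Rptor, the scaffold of the mTORC1 kinase that signals from the lysosome, averaged 32.3 FPKM in D272Mut, 32.8 FPKM in GTMut and 1.29 FPKM in WT.

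Over all 98 listed lysosomal genes other than the 7, 79 were tested, of which 30.4% rose and 51.9% fell in D272Mut, and 35.4% rose and 46.8% fell in GTMut. The shares over all tested genes were 36.3% higher and 39.5% lower in D272Mut, and 38.3% higher and 39.2% lower in GTMut, and the difference from them was not tested. The 2 mutants share their WT libraries, so their counts against WT are not independent of each other.

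Enzymes that trim glycans outside the lysosome were set beside them. Of 15 listed glycosidases of the endoplasmic reticulum, Golgi and cytosol, 14 were tested, of which 8 rose and 6 fell in D272Mut, and 8 rose and 6 fell in GTMut. Over all tested genes, 36.3% rose and 39.5% fell in D272Mut, and 38.3% rose and 39.2% fell in GTMut. The difference of this list from them was not tested. Mogs, the glucosidase that begins N-glycan trimming, averaged 17.9 FPKM in D272Mut, 16.8 FPKM in GTMut and 0.901 FPKM in WT. Man1b1, an alpha-mannosidase of early N-glycan trimming, averaged 11.6 FPKM in D272Mut, 15.7 FPKM in GTMut and 0.769 FPKM in WT. It reached 1 FPKM only in mutant libraries, so for Man1b1 too the filter favours a rise.

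**Figure D3:**
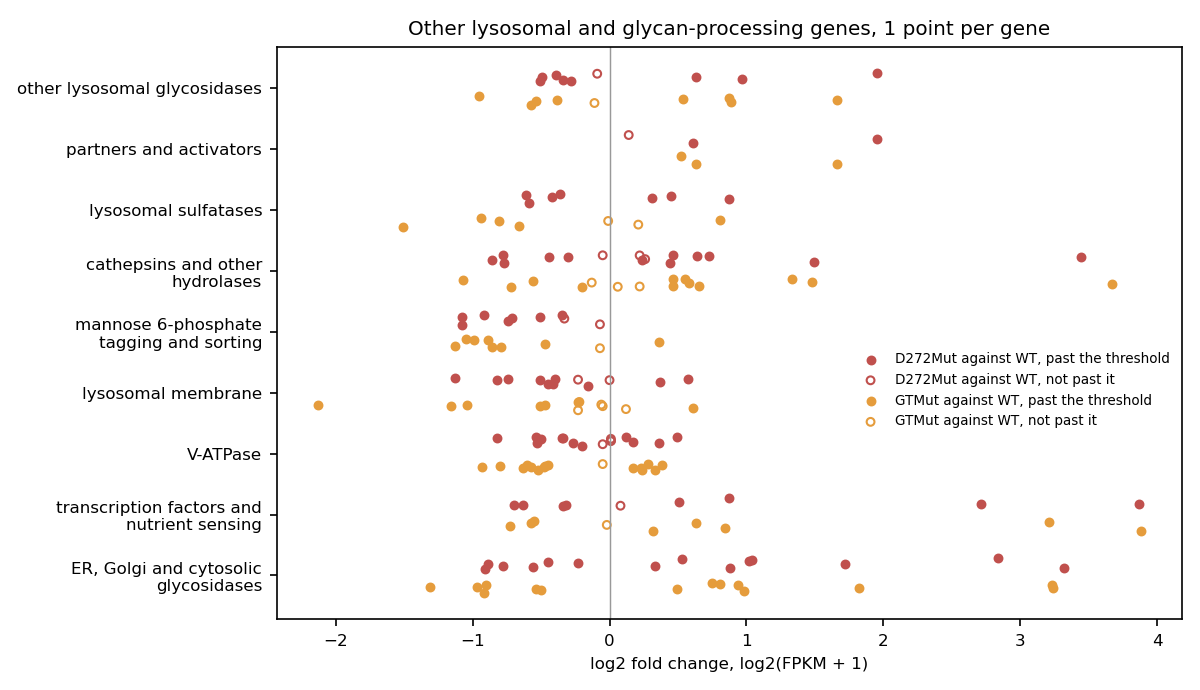
Log2 differences from WT on the log2(FPKM + 1) scale for the tested genes of 9 lists, 1 point per gene, with D272Mut in the upper and GTMut in the lower line of each list, filled where the limma adjusted p passed 0.05. Points of the mannose 6-phosphate list lie mostly below 0, and Ctsl, Tfeb, Rptor, Mogs and Man1b1 lie at 2.71 or above in both mutants. Tfeb and Man1b1 passed the filter of 1 FPKM only in mutant libraries, which favours a rise.

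The genes around Manba on chromosome 3 were also read. On its start side, Ube2d3, a ubiquitin-conjugating enzyme gene 17.4 kb away, averaged 720 ± 17.8 FPKM in D272Mut, 653 ± 46.9 FPKM in GTMut and 714 ± 37.2 FPKM in WT. Its difference from WT was 0.01 ± 0.05 in D272Mut (limma, adjusted p = 0.823) and -0.13 ± 0.05 in GTMut (limma, adjusted p = 0.0298). In D272Mut it was 0.13 after median-ratio rescaling (limma, adjusted p = 0.0348) and 0.39 under quantile normalization (limma, adjusted p = 1.83e-05). In GTMut it was 0.29 under quantile normalization (limma, adjusted p = 0.000235) and -0.02 after median-ratio rescaling (limma, adjusted p = 0.696). The GTMut call also missed the threshold with no filter (0.0545), with only the 8 libraries compared (0.0546), and without GTMut replicate 2 or 4 or WT replicate 1, 2 or 3 (adjusted p 0.0561 to 0.0948). The unnamed transcript 4930539J05Rik, 46.9 kb away, rose by 0.94 ± 0.15 in both mutants (limma, adjusted p = 7.11e-05 in D272Mut and 6.57e-05 in GTMut). Cisd2, 61.7 kb away and coding for an iron-sulphur protein, averaged 15.3 ± 1.34 FPKM in D272Mut, 15.9 ± 0.922 FPKM in GTMut and 17.5 ± 2.11 FPKM in WT, and passed the test in neither mutant. Without WT replicate 2, Cisd2 was lower by 0.27 in D272Mut (limma, adjusted p = 0.00423) and by 0.21 in GTMut (limma, adjusted p = 0.015). Quantile normalization gave -0.42 in D272Mut (limma, adjusted p = 0.000378) and -0.36 in GTMut (limma, adjusted p = 0.00105). With the replicate block Cisd2 passed the threshold in D272Mut (-0.18, limma, adjusted p = 0.0486).

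On the other side, Nfkb1, a transcription factor gene 13.3 kb away, averaged 4.14 ± 0.535 FPKM in D272Mut, 5.6 ± 0.623 FPKM in GTMut and 3.23 ± 0.405 FPKM in WT. It rose by 0.28 ± 0.10 in D272Mut (limma, adjusted p = 0.0229), where quantile normalization gave -0.09 and where it missed the threshold without D272Mut replicate 4 or WT replicate 2 or 3 (adjusted p 0.0513 to 0.0772), and by 0.64 ± 0.10 in GTMut (limma, adjusted p = 5.53e-05). Slc39a8, a zinc and manganese transporter gene 254 kb away, held 2, 3, 0 and 1 fragments in D272Mut libraries, 1, 2, 0 and 1 in GTMut libraries, and 284, 493, 747 and 461 in WT libraries. Its difference from WT was -4.44 ± 0.13 in D272Mut (limma, adjusted p = 1.36e-12) and -4.50 ± 0.13 in GTMut (limma, adjusted p = 9.66e-13). Slc39a8 passed the filter of 1 FPKM only in WT libraries, where it was higher, so that filter favours a fall. The next listed gene, 4933401H06Rik, was listed at 0 in all libraries. Beyond it, 482 kb from Manba, Bank1, a B-cell scaffold gene named here after its values were seen, held 3, 6, 8 and 3 fragments in D272Mut libraries, 2, 2, 4 and 10 in GTMut libraries, and 59, 66, 76 and 52 in WT libraries. Bank1 also passed the filter of 1 FPKM only in WT libraries, which favours a fall. Manba, Slc39a8 and Bank1 thus fell or stood far lower in both mutants, while Nfkb1, which lies between Manba and Slc39a8, rose in the fit as given. Slc9b1, 87.8 kb away on the start side, passed the test in neither mutant. Ppp3ca, beyond Bank1, differed from WT by -0.95 ± 0.10 in D272Mut (limma, adjusted p = 1.38e-06) and by -0.49 ± 0.10 in GTMut (limma, adjusted p = 0.000614). Over all tested genes, 39.5% fell in D272Mut and 39.2% in GTMut, and the difference of these neighbours from other genes was not tested. The labels name C57BL/6 for all groups, and nothing more on the genetic background at these loci is given in the sources used here, so a difference in background there and the Marf1 genotype cannot be told apart.

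**Figure D4:**
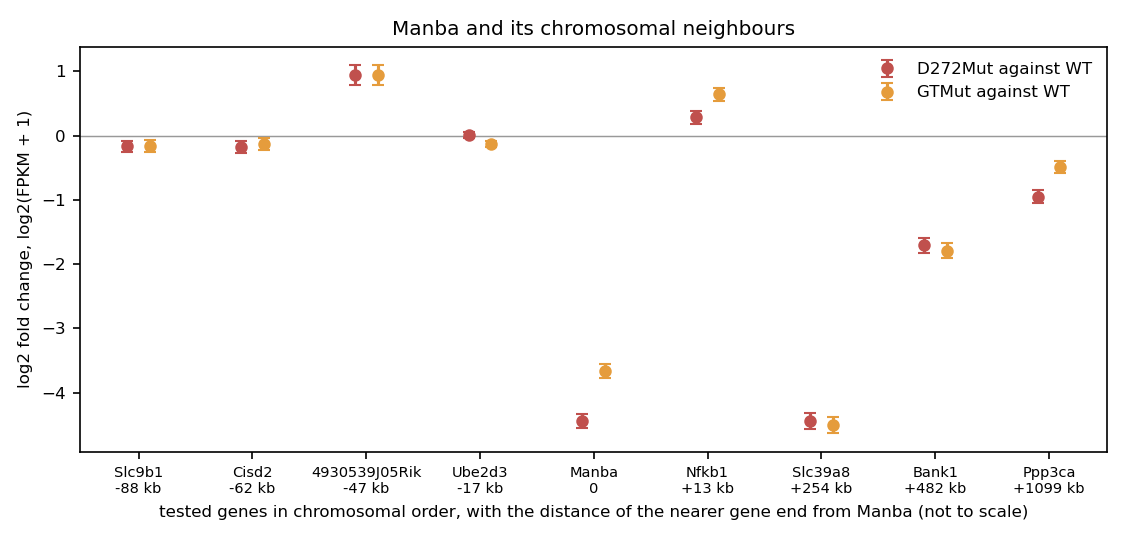
Log2 differences from WT on the log2(FPKM + 1) scale, with SE from the limma fit, for Manba and the tested genes around it in chromosomal order, D272Mut left of GTMut for each gene. Manba and Slc39a8 lie at -3.66 or below in both mutants, Bank1 lies at -1.71 and -1.79, and Nfkb1 between them lies above 0.

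The tested genes whose profile over the 12 libraries was most like that of Manba were Hvcn1 (Pearson r = 0.995), Capn7 (0.995), Nlrp4f (0.994), Mdm4 (0.994) and Sepw1 (0.994), on log2(FPKM + 1). These r values describe 12 libraries that fall into 3 genotypes and carry no p. All 5 were lowest in D272Mut, higher in GTMut and highest in WT in their means, at a smaller scale. Hvcn1, which encodes a proton channel, averaged 17.2 FPKM in D272Mut, 20.2 FPKM in GTMut and 39.0 FPKM in WT. Closest to Glb1 were Lman2l (r = 0.987) and Spidr (0.983), to Fuca1 Psmd1 (0.949) and Sertad3 (0.941), to Gla Kctd1 (0.925) and Prr30 (0.919), and to Man2b1 Mapkapk3 (0.901) and Stau2 (0.872). For Hexa they were Tmco5b (0.891) and Commd5 (0.889), and for Gusb Rnaseh2c (0.828) and Mad2l1bp (0.799), over values of a few fragments.

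Markers of other ovarian cells were read beside these results. The 12 granulosa and cumulus markers summed to 142 to 143 FPKM in D272Mut, 147 to 161 FPKM in GTMut and 44.5 to 49 FPKM in WT libraries, and Amhr2, Foxl2, Fst and Ptx3 among them stayed under 1 FPKM in all libraries. Nr5a2 made up most of that sum, with a mean of 118 FPKM in D272Mut, 134 FPKM in GTMut and 26.5 FPKM in WT. Kitl, which encodes the KIT ligand, rose as well, at 11.6 FPKM in D272Mut, 11.7 FPKM in GTMut and 2.63 FPKM in WT. Cyp19a1, the aromatase gene of the same list, fell, with 6.53 FPKM in D272Mut and 4.9 FPKM in GTMut against 11.7 FPKM in WT (log2 differences of -0.76 ± 0.10 and -1.11 ± 0.10, limma adjusted p = 6.82e-06 and 1.11e-07). Fshr averaged 0.3 FPKM in D272Mut, 0.179 FPKM in GTMut and 1.26 FPKM in WT. Inhba averaged 0.999 FPKM in D272Mut, 1.79 FPKM in GTMut and 0.111 FPKM in WT. Amh, Inha and Hsd17b1 overlapped WT in both mutants. Macrophages are rich in lysosomal enzymes. The 9 macrophage and blood markers summed to 46.1 to 57.6 FPKM in D272Mut, 13.4 to 18.6 FPKM in GTMut and 19.8 to 22.5 FPKM in WT libraries. Ptprc, Csf1r, Adgre1 and Hbb-bs among them stayed under 1 FPKM in all libraries, and C1qb made up most of the sum. Lyz2 and C1qa also rose in D272Mut, to 5.51 and 2.45 FPKM against 1.13 and 0.281 FPKM in WT (limma, adjusted p = 0.00114 and 4.77e-05). C1qa reached 1 FPKM only in D272Mut libraries, where it was higher, so the filter favours a rise there. In GTMut Lyz2 and C1qa did not pass the test (limma, adjusted p = 0.376 and 0.144). C1qb averaged 40 FPKM in D272Mut, 14.5 FPKM in GTMut and 18.3 FPKM in WT. It rose in D272Mut (limma, adjusted p = 1.79e-06) and fell in GTMut (limma, adjusted p = 0.0273), where the libraries overlapped those of WT. Cd68 and Hba-a1 overlapped WT in both mutants. Theca and stroma markers, 9 in number, summed to 3.21 to 5.03 FPKM in D272Mut, 3.16 to 3.92 FPKM in GTMut and 2.58 to 3.46 FPKM in WT libraries. The 4 endothelial markers summed to 13.4 to 16.6 FPKM in D272Mut, 15.1 to 15.8 FPKM in GTMut and 23.5 to 24.6 FPKM in WT libraries. Most of that sum was Pecam1, with 11.7 FPKM in D272Mut, 11.4 FPKM in GTMut and 20.7 FPKM in WT. Tek, Kdr and Cdh5 overlapped WT in both mutants. The part of these cells in the glycosidase levels was not tested.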

How the data were processed

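Per the labels and the series' design text, RNA from fully grown oocytes was sequenced as 12 paired-end libraries, 4 for each of D272Mut, GTMut and WT. The labels differ in places, since Smart-seq2 is also named for the amplification and whole ovaries are given as the lysed material in the treatment text. Per the submitters' processing notes, reads were aligned to mm10 with TopHat2 2.0.13, and the authors made FPKM values with Cufflinks 2.2.1 and compared genotypes with Cuffdiff. The deposited table holds the FPKM of each library, normalized by the authors to transcript length and library size, and the authors' log2 ratios, p-values and q-values. The header lacks a name for the first column, so columns were read by position. Whether counting used strand was not stated in the labels, and reads of overlapping genes or of related genes may be split between them.

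FPKM values are not counts, so they were analysed as log2(FPKM + 1), for the 12980 of 24254 genes that reached 1 FPKM in any library. All 12 libraries entered one fit in limma 3.58.1 (R 4.3.3, empirical Bayes with an intensity trend, 9 residual degrees of freedom), with two-sided tests, p-values adjusted by Benjamini-Hochberg across the genes tested in each comparison and 0.05 as the threshold. The fit was tested on simulated data. Ratios and scarce genes were tested by exact permutation of libraries, 70 arrangements for 4 against 4. Fragments were read from the step of 1 fragment in the FPKM values, which fell on whole steps (within 0.04 of a step) in 574 of 672 low genes with a single transcript (85.4%). The totals are approximate, because 250 bases were taken off each transcript length, and PCR copies are not independent molecules. Promoter sequences are RefSeq's (GRCm38.p6). Figures were drawn with matplotlib 3.10.9.

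The members, the gene lists and the tests were chosen with earlier results of these data known. Genes named are the 7 members, their partners, up to 4 members of each list past the threshold with the smallest p, the tested genes with the most similar profile (5 for Manba, 2 for each other member), the 3 nearest listed genes on each side of Manba and the 3 most abundant markers of each list. Some results of this rule are not reported here. Bank1, Tmppe, Slc9b1, Ppp3ca and further markers of the lists were added after their values were seen. Replicate numbers did not pair the libraries: the correlation of deviations from the genotype means was -0.357 to 0.094 for equal numbers. Alternatives covered the pseudocount, the filter, the scaling, the libraries fitted, the replicate block and leaving out each library.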

Additional observations from a re-analysis of the deposited data

Results flagged for a closer look

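The Manba level left in the mutants differed between them, at 0.468 ± 0.176 FPKM in D272Mut and 1.51 ± 0.179 FPKM in GTMut (n = 4 each). The difference itself was tested and was -0.78 on the log2(FPKM + 1) scale (limma, adjusted p = 6.97e-05), lower in D272Mut in 4 of 4 libraries. The choice of genes had used the Manba values of both mutants, so this p-value is not independent of it. Over 19 alternatives it ran from -1.56 to -0.70, with adjusted p between 5.55e-05 and 0.000711.

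The WT library with 0.456 FPKM of Man2b1 stood apart from the other 3, its gap to the nearest taking 0.886 of the range of the 4 values, above the critical value of Dixon's test for 4 samples. It rested on 12 fragments, against 17, 19 and 25 in the other WT libraries. Chance flags about 1 in 20 groups, and 1 was flagged among 36 examined.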

How the results depend on the processing

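Fuca1 stayed lower and past the threshold in both mutants under all alternatives run. Glb1 did so where it was fitted, but with the filter of 1 FPKM it entered only through WT, where it was higher, so of these the fit with no filter bears on its fall. The log2 difference from WT ran from -1.53 to -0.89 for Glb1 and from -0.71 to -0.35 for Fuca1 in D272Mut, and from -1.86 to -1.03 for Glb1 and from -0.75 to -0.39 for Fuca1 in GTMut. With no filter 1 of the 6 enzymes other than Manba, Gla, was higher in D272Mut and 1 in GTMut. With a mean of at least 5 FPKM, 1 was lower in each mutant, because Glb1 was not fitted. Quantile normalization shifted the median of all genes to -0.25 in D272Mut and -0.23 in GTMut.

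The Glb1 to Ctsa ratio against WT was -1.38 in D272Mut (exact permutation p = 0.0571) and -0.52 in GTMut (exact permutation p = 0.4) with a pseudocount of 0.1, and the cause was not tested. Leaving out 1 library gave -1.06 to -0.80 in D272Mut and -0.96 to -0.71 in GTMut, with exact p of 0.0286 to 0.0571 in each. The p was 0.0571 without D272Mut replicate 1 in D272Mut, and without GTMut replicate 2, 3 or 4 or WT replicate 1 or 4 in GTMut. Between the mutants it gave -0.17 to 0.02.

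Replicate numbers did not pair the libraries. With the replicate block the Glb1 to Ctsa ratio was -0.92 in D272Mut and -0.83 in GTMut, each with an exact p = 0.125, the smallest that 4 pairs allow. The block left the counts of glycosidases as they were.

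Among single genes past or near 0, quantile normalization gave -0.13 for Gm2a, -0.04 for Arsk and -0.09 for Nfkb1 in D272Mut and 0.29 for Ube2d3 in GTMut. When 1 library was left out, Ube2d3 in D272Mut ran from -0.02 to 0.03 and Fuca1 between the mutants from -0.05 to 0.11. Of 54 counts over other lists, 28 moved by more than 1.5 times with a mean of at least 5 FPKM, which leaves fewer genes, 6 under quantile normalization, 5 under median-ratio rescaling, 5 with no filter, 3 with only the groups compared, 2 with the block and 1 with a pseudocount of 0.1. The scarce Man2b1, Gla, Hexa and Gusb rest on at most 25 fragments a library, which limits what can be detected.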
